A study of Homo sapiens with 9 samples.

Results

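The genes described here are 10 regulators of the passage from G1 into S phase. They are the cyclin genes CCND1, CCNE1 and CCNE2, the cyclin-dependent kinase genes CDK2, CDK4 and CDK6, the transcription factor genes E2F1 and E2F2, and the pocket protein genes RB1 and RBL1. They were chosen by name from the 33861 genes of the deposited table, and 10 of 10 passed the filter on low counts, as did 20988 genes in all. In proliferating cells, cyclin D with CDK4 or CDK6, and then cyclin E with CDK2, phosphorylate the pocket proteins. Phosphorylated pocket proteins release E2F factors, which switch on genes for DNA replication and for the cyclin E and E2F proteins themselves. Colorectal cancer cells commonly express cyclin D1 at a high level, since its gene responds to growth factor and Wnt signals.

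RNA was sequenced from HCT116, a human colorectal carcinoma cell line, to compare control cells with cells given activin alone or activin and then hepatocyte growth factor (HGF). Control libraries carry the label NC, and the length of their culture is not stated in the sources used here. Activin-treated cells received activin A at 100 ng/mL for 5 days, while the activin + HGF group went through the same activin treatment and then HGF at 20 ng/mL for 5 days. Each group had 3 libraries. The activin + HGF cells were therefore older in culture than the activin cells, so HGF and the additional days cannot be told apart. The sources used here do not state whether activin stayed in the medium with HGF. A removal of activin thus cannot be told apart from HGF either. Activin is a ligand of the TGF-beta family that signals through SMAD proteins, and HGF is the ligand of the receptor tyrosine kinase MET. The libraries are bulk RNA from a cell line, in which a smaller share of cells that express a gene and less RNA per cell cannot be told apart.

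The libraries held 57453977 to 77016167 counts. TMM factors, which correct library sizes for composition, were 1.03 to 1.07 in control, 0.988 to 1.17 in activin and 0.783 to 0.926 in activin + HGF libraries, so they differed between groups. Mitochondrial genes took 18% to 20.1% of the counts in control libraries and 15.1% to 17.2% in the others. Of 8 epithelial and colon markers, 6 or 7 reached 1 CPM (a count scaled to library size) in every library of a group, with summed levels of 1879 to 3965 CPM, while VIL1, which encodes villin, was at or near 0. Markers of fibroblasts, endothelium and leukocytes summed to 24.5 to 25.8 CPM in control, 49.3 to 55.7 CPM in activin and 34.5 to 43.0 CPM in activin + HGF libraries. Most of each sum was COL1A1, with group means of 23.7, 48.4 and 37.7 CPM in the same order. Among the others the highest group mean was that of PDGFRB with activin, at 2.2 CPM. The part of these markers in the results was not tested. Activin replicate 2 stood apart: genes that span over 100 kb lay at a median of -0.16 log2 from their group mean there, against 0.103 and 0.0787 in the other activin libraries. The labels do not say whether replicates were separate cultures, so p-values measure the spread between these libraries, which may be technical.

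Among the 10 genes, CCND1 had the highest length-corrected level in every group. Its FPKM, which scales counts to gene length and library size, was 66.9 ± 0.121 (SD, n = 3) in control cells, 76.5 ± 3.0 with activin and 86.5 ± 7.21 with activin + HGF. CDK4 came next in each group, at 46.5 ± 13.1, 47.2 ± 13.5 and 23.6 ± 5.33 FPKM, and its range did not touch that of CCND1. In control cells E2F1, CCNE1 and CDK2 followed with overlapping ranges, from 10.4 to 14.1 FPKM. The lowest places belonged to RBL1 and CCNE2 in all groups, and their ranges overlapped in each. In activin + HGF libraries these genes stood at 0.393 ± 0.0611 and 0.353 ± 0.0252 FPKM. In control cells CCNE2 stood at 2.12 ± 0.236 FPKM.

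**Figure D1:**
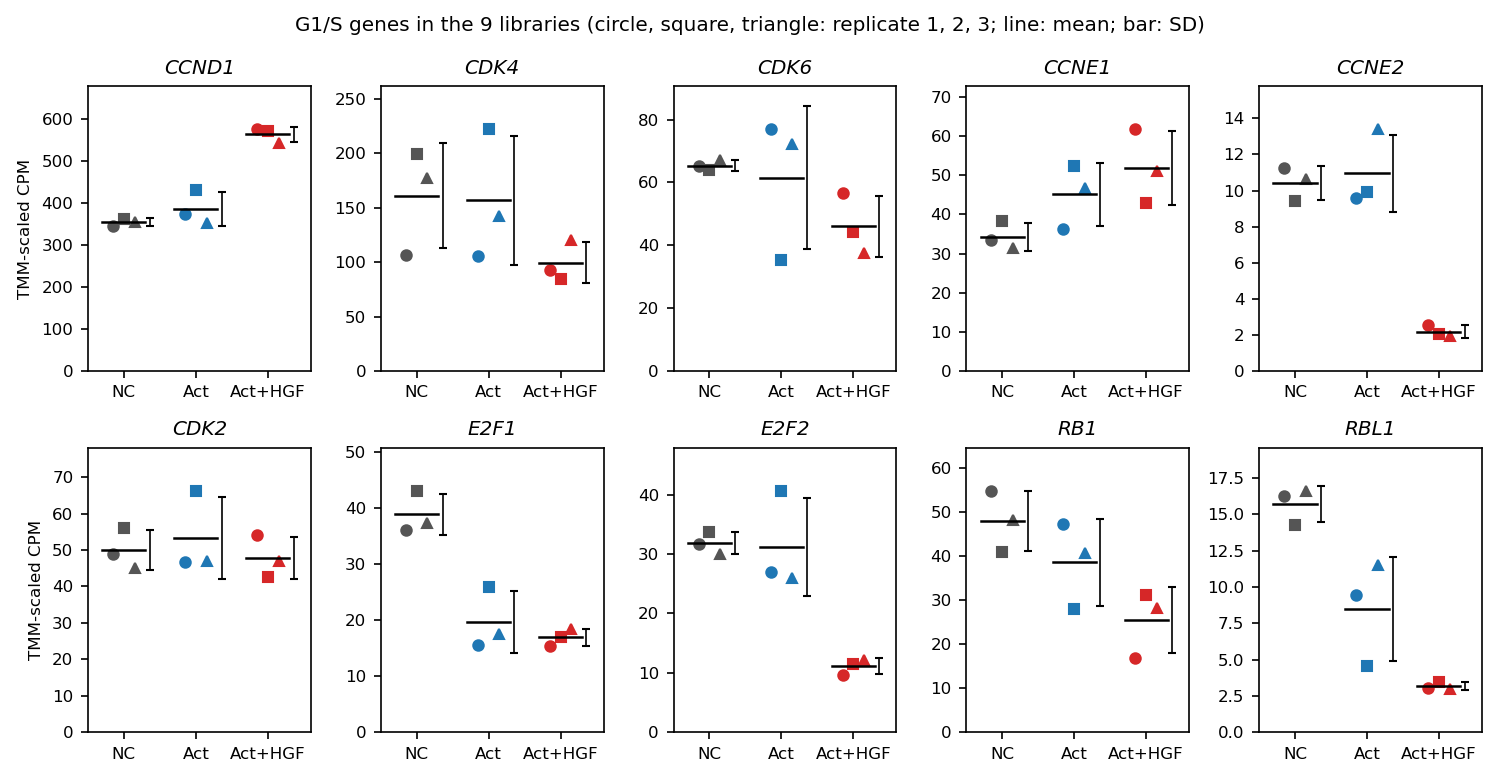
TMM-scaled CPM (linear axes from 0) of the 10 G1/S genes in 3 control (NC), 3 activin (Act) and 3 activin + HGF (Act+HGF) libraries, with the mean as a line and the SD as a bar. The activin + HGF points of CCNE2, E2F2 and RBL1 lie below all other points of those genes, and those of CCND1 lie above.

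Fold changes come from edgeR's quasi-likelihood test on the counts of all 9 libraries, and a gene passed at a Benjamini-Hochberg adjusted p under 0.05. With activin, 1 of the 10 genes passed, E2F1, which was lower. Of all tested genes, 18% passed in that comparison, 9.58% as higher and 8.41% as lower. From activin to activin + HGF, 4 passed, with CCND1 higher and CCNE2, E2F2 and RBL1 lower, against 12.9% of all genes, 7.41% higher and 5.45% lower. In activin + HGF against control, 7 passed, with CCND1 and CCNE1 higher and CCNE2, E2F1, E2F2, RB1 and RBL1 lower, against 31.4% of all genes, 16.4% higher and 15% lower. CDK2, CDK4 and CDK6 passed in none of the 3 comparisons. The count for activin was 0 without control replicate 2, and that for the HGF step was 2 without activin replicate 1, activin replicate 3 or activin + HGF replicate 3. Over all genes the HGF step was the least stable, with 686 passing without activin replicate 1 and 4533 without activin replicate 2, against 2698 in the full data. These comparisons share libraries and are not independent of each other. The median log2 fold change of the 10 genes was -0.03, -0.51 and -0.80 in the same order, beside 0.02, -0.04 and -0.03 over all tested genes.

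Library scaling bears on every comparison with the activin + HGF group. With library totals alone in place of TMM, the median log2 fold change of all genes moved from -0.04 to -0.38 against activin and from -0.03 to -0.30 against control. The share of passing genes that were higher moved from 57.6% to 22.3% and from 52.3% to 36.3%. With upper quartile scaling, 46.7% of the passing genes were higher in activin + HGF than in activin. In limma on FPKM the shares were 25.4% against activin and 34.7% against control. For activin against control the share moved from 53.2% to 63.5% with library totals. The lower CCNE2, E2F1, E2F2, RB1 and RBL1 and the higher CCND1 of activin + HGF against control kept their direction under every scaling tried.

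**Figure D2:**
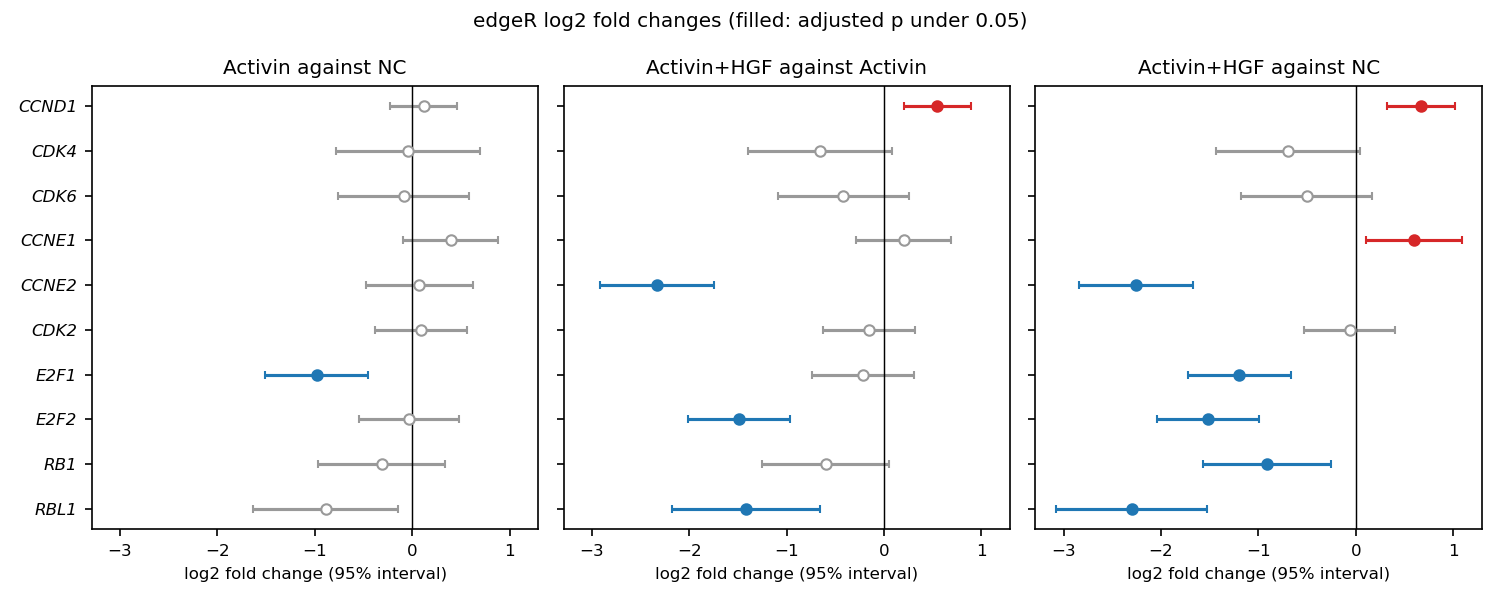
edgeR log2 fold changes of the 10 genes (points) with 95% confidence intervals (bars) in the 3 comparisons, filled where the adjusted p was under 0.05, red for higher and blue for lower. E2F1 alone is filled for activin against NC, and CCNE2 and RBL1 reach beyond -2 against NC after activin + HGF.

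CCND1 (ENSG00000110092, chromosome 11, 69641156 to 69654474, plus strand, GRCh38) encodes cyclin D1, the activating subunit of CDK4 and CDK6. It stood at 346, 363 and 356 CPM in control libraries, at 373, 431 and 352 CPM with activin and at 575, 572 and 544 CPM with activin + HGF. In CPM, all activin + HGF libraries were above the other 6, whereas control and activin libraries overlapped. In FPKM, control (66.75 to 66.99) and activin (73.16 to 78.94) did not overlap, and activin + HGF libraries began just above activin, at 79.21. Against control, activin + HGF gave a log2 fold change of 0.67 (SE, the standard error, 0.142, edgeR adjusted p = 0.00569), and the call held in 20 of 20 alternatives. The step from activin to activin + HGF gave 0.55 (SE 0.141, edgeR adjusted p = 0.0322). This call held in only 4 of 20 alternatives, with adjusted p from 0.0025 to 0.346 from the tools tried. It was lost on leaving out any library other than activin replicate 2 (log2 fold change 0.41 to 0.57, adjusted p 0.054 to 0.137 from edgeR), and with library totals it was 0.21 (edgeR adjusted p = 0.238). Activin alone gave 0.12 with a 95% interval of -0.23 to 0.46.

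CDK4 (ENSG00000135446, chromosome 12, 57747727 to 57756013, minus strand) and CDK6 (ENSG00000105810, chromosome 7, 92604921 to 92836573, minus strand) encode the kinases that cyclin D1 activates. For CDK4 the values were 107, 199 and 178 CPM in control, 106, 222 and 143 CPM in activin and 92.9, 84.9 and 121 CPM in activin + HGF libraries. Replicates of CDK4 thus differed widely, and the groups overlapped in CPM in each comparison. Activin + HGF against control gave -0.70 (95% interval -1.44 to 0.05, edgeR adjusted p = 0.106). It passed as lower with library totals (-0.96, edgeR adjusted p = 0.0245), in limma on FPKM (-0.96, adjusted p = 0.0201) and without control replicate 1 (-0.96, edgeR adjusted p = 0.0413). The HGF step gave -0.66 (95% interval -1.40 to 0.08, edgeR adjusted p = 0.175), and it too passed as lower with library totals (-0.97, edgeR adjusted p = 0.0423) and in limma on FPKM (-0.98, adjusted p = 0.0355). Activin against control lay near 0, at -0.04 (95% interval -0.78 to 0.70), and took the other sign under some scalings, with 0.01 under library totals.

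CDK6 was even in control cells, at 65.1, 63.8 and 67.1 CPM. With activin it stood at 76.8, 35.3 and 72.2 CPM, the low value being that of activin replicate 2, and with activin + HGF at 56.6, 44.3 and 37.4 CPM. Every activin + HGF library lay under every control library, but the log2 fold change of -0.50 (SE 0.275, edgeR adjusted p = 0.191) did not pass. Without activin replicate 2, CDK6 passed as lower, with -0.51 against control (edgeR adjusted p = 0.0333) and -0.69 against activin (edgeR adjusted p = 0.0233). The gene spans 231.7 kb. In activin replicate 2 it lay -0.705 log2 from its group mean, beside a median of -0.16 for genes over 100 kb. The part of gene length in this value was not tested.

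CCNE1 (ENSG00000105173, chromosome 19, 29811991 to 29824312, plus strand) and CCNE2 (ENSG00000175305, chromosome 8, 94879770 to 94896678, minus strand) encode the paralogs cyclin E1 and cyclin E2, which activate CDK2 late in G1. CCNE1 gave 33.4, 38.3 and 31.3 CPM in control, 36.3, 52.3 and 46.8 CPM in activin and 61.7, 42.9 and 51.1 CPM in activin + HGF libraries. Its activin + HGF libraries were all above the control ones in CPM, but the groups overlapped in FPKM. The log2 fold change was 0.60 (SE 0.201, edgeR adjusted p = 0.0448). That call held in 6 of 20 alternatives, and the adjusted p reached 0.21 in limma on FPKM without a filter. It was lost on leaving out any library except activin replicate 2 or activin + HGF replicate 2, with log2 fold changes down to 0.45 without activin + HGF replicate 1 (edgeR adjusted p = 0.121). The HGF step was 0.20 (95% interval -0.29 to 0.69) and became -0.15 with library totals, so no direction is given for it.

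CCNE2 behaved differently from its paralog. Control libraries held 11.2, 9.40 and 10.6 CPM, activin libraries 9.56, 9.89 and 13.4 CPM, and activin + HGF libraries 2.57, 2.02 and 1.95 CPM. Control and activin overlapped, and all activin + HGF libraries were far below both. Relative to activin the log2 fold change was -2.33 (SE 0.238, edgeR adjusted p = 0.00129), a 5.02-fold lower level. Relative to control it was -2.26 (SE 0.238, edgeR adjusted p = 0.000136), 4.78-fold lower. Both calls held in 20 of 20 alternatives. With activin alone the value was 0.07 (95% interval -0.48 to 0.62).

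CDK2 (ENSG00000123374, chromosome 12, 55966781 to 55972789, plus strand), the kinase partner of the E cyclins, ranged from 45.1 to 55.9 CPM in control, from 46.7 to 66.2 CPM in activin and from 42.7 to 54.0 CPM in activin + HGF libraries. The groups overlapped in CPM in all comparisons. The log2 fold change of activin + HGF against control was -0.06, with a 95% interval of -0.53 to 0.41. In limma on FPKM the HGF step passed as lower, at -0.52 (adjusted p = 0.0358).

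The ratio of CCNE1 to CCNE2 within a library does not depend on library scaling, and FPKM puts both genes on 1 length-corrected scale. The ratio was 5.30 to 7.29 in control libraries, 6.26 to 9.45 in activin libraries and 38.8 to 47.7 in activin + HGF libraries. Cyclin E1 was thus the more abundant transcript everywhere, and in activin + HGF libraries the ratio lay above the whole range of the other 6. The mean log2 ratio was 2.54 higher than with activin alone and 2.87 higher than in control (two-sided exact permutation p = 0.1 for each, the smallest p that 3 against 3 can give). For CDK4 to CDK6 the ratios ran from 6.48 to 12.4 in control, from 5.45 to 25.0 in activin and from 6.49 to 12.8 in activin + HGF libraries. These ranges overlapped in all comparisons (exact permutation p from 0.8 to 1).

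**Figure D3:**
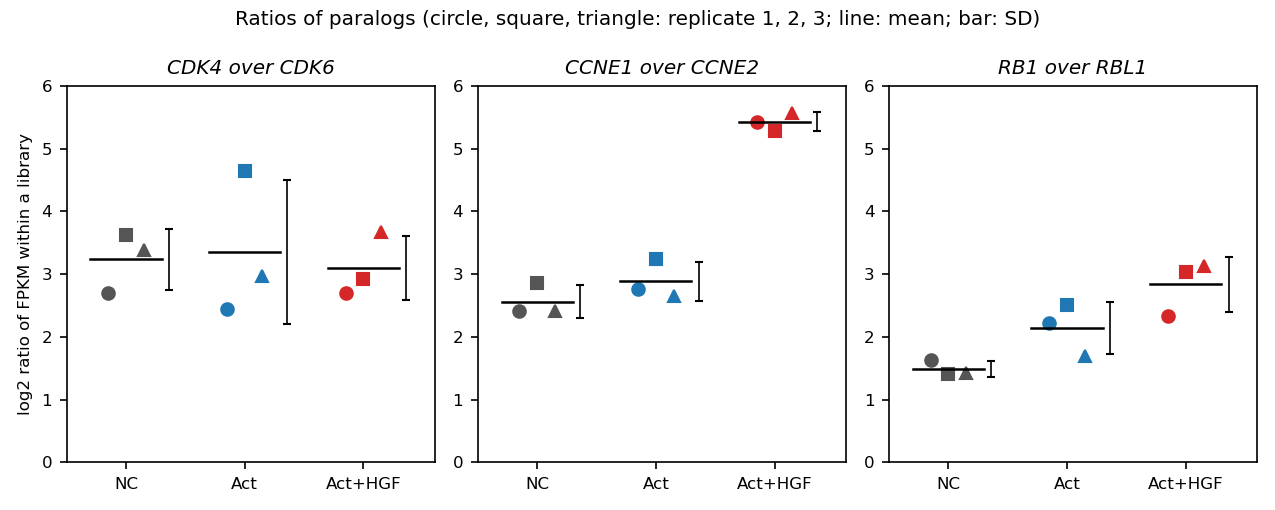
Ratio of FPKM of 2 related genes within each library (log2 axis from 0 to 6) for CDK4 over CDK6, CCNE1 over CCNE2 and RB1 over RBL1, with the group mean as a line and the SD as a bar. The CCNE1 over CCNE2 ratio of the activin + HGF libraries, 38.8 to 47.7 before the log2, lies apart from the other groups, while the CDK4 over CDK6 groups overlap.

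E2F1 (ENSG00000101412, chromosome 20, 33675477 to 33686385, minus strand) and E2F2 (ENSG00000007968, chromosome 1, 23506438 to 23531233, minus strand) encode activator E2F proteins, which drive S-phase genes once pocket proteins release them. In the E2F1 row, control libraries read 36.2, 43.1 and 37.4 CPM, activin libraries 15.7, 26.0 and 17.5 CPM and activin + HGF libraries 15.4, 17.1 and 18.4 CPM. Control lay above all treated libraries, and the treated groups overlapped. E2F1 was lower with activin, at -0.98 on the log2 scale (SE 0.215, edgeR adjusted p = 0.011). Without control replicate 2 the call was narrowly missed (-0.86, edgeR adjusted p = 0.0512). With activin + HGF the change from control was -1.20 (SE 0.216, edgeR adjusted p = 0.00249), held in 20 of 20 alternatives, and the HGF step itself was -0.22 (95% interval -0.74 to 0.31).

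E2F2 showed another order. Its values were 31.7, 33.8 and 30.1 CPM in control, 27.0, 40.6 and 25.9 CPM with activin and 9.66, 11.6 and 12.2 CPM with activin + HGF. Control and activin overlapped, and every activin + HGF library lay below both. The HGF step gave -1.48 (SE 0.214, edgeR adjusted p = 0.00502) and activin + HGF against control gave -1.52 (SE 0.214, edgeR adjusted p = 0.000658). Both calls held in 20 of 20 alternatives. For activin alone the value was -0.03 (95% interval -0.54 to 0.48), with the other sign under library totals (0.02).

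RB1 (ENSG00000139687, chromosome 13, 48303744 to 48599436, plus strand) encodes the retinoblastoma protein, which restrains E2F1 and E2F2. RBL1 (ENSG00000080839, chromosome 20, 36996349 to 37095997, minus strand) encodes p107, a related pocket protein whose gene is itself known to respond to E2F. RB1 stood at 54.7, 41.0 and 48.1 CPM in control, 47.2, 27.9 and 40.6 CPM in activin and 16.9, 31.2 and 28.3 CPM in activin + HGF libraries. All activin + HGF libraries were below the control ones, and the activin libraries overlapped both groups. Activin + HGF against control gave -0.91 (SE 0.268, edgeR adjusted p = 0.0262). The call was lost without control replicate 1 (edgeR adjusted p = 0.0863), control replicate 3 (edgeR adjusted p = 0.0708) or activin + HGF replicate 1 (-0.69, edgeR adjusted p = 0.0638). Neither step alone passed, with -0.31 (95% interval -0.97 to 0.34) for activin and -0.60 (95% interval -1.25 to 0.06) for HGF.

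The RBL1 levels formed separate tiers. It held 16.3, 14.3 and 16.6 CPM in control, 9.43, 4.55 and 11.5 CPM with activin and 3.07, 3.49 and 3.01 CPM with activin + HGF. No pair of groups overlapped. Activin + HGF against control gave -2.30 (SE 0.318, edgeR adjusted p = 0.000591), 4.93-fold lower, and held in 20 of 20 alternatives. The activin step, -0.89 (SE 0.304, edgeR adjusted p = 0.0699), did not pass, although it did with DESeq2 (adjusted p = 0.0346). The HGF step was -1.41 (SE 0.31, edgeR adjusted p = 0.0181). That call was lost without activin replicate 1 (adjusted p = 0.0641), activin replicate 3 (-1.23, adjusted p = 0.0587) or activin + HGF replicate 3 (adjusted p = 0.0512), each from edgeR, and in a fit of the 2 groups alone (edgeR adjusted p = 0.0616).

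The ratio of RB1 to RBL1 in FPKM was 2.65 to 3.12 in control, 3.25 to 5.69 in activin and 5.06 to 8.79 in activin + HGF libraries. Treated libraries all lay above control, and the treated groups overlapped. The mean log2 ratio was 0.65 higher with activin and 1.35 higher with activin + HGF than in control (two-sided exact permutation p = 0.1 for each). RB1 and RBL1 read low in activin replicate 2, at 27.9 and 4.55 CPM, or -0.422 and -0.695 log2 from their group mean. RB1 spans 295.7 kb and RBL1 99.65 kb. Genes of 10 to 100 kb, the class of RBL1, had a median of 0.0127 in that library, and those over 100 kb -0.16. The part of gene length in these values was not tested. Leaving activin replicate 2 out changed no call of either gene.

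Not overlapping in CPM were 2 of the 10 genes for activin against control, 4 for the HGF step and 8 for activin + HGF against control. Over all tested genes these shares were 42.2%, 32.7% and 53.8%.

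The changes of the 2 steps were also compared directly, as the HGF step minus the activin step, a contrast added after the data had been seen. It gave -2.40 for CCNE2 (SE 0.379, edgeR adjusted p = 0.00455) and -1.45 for E2F2 (SE 0.354, edgeR adjusted p = 0.0315). In the activin step both genes lay near 0 (0.07 and -0.03, neither passing), and they were 2 of 10 members to pass, beside 9.15% of all genes. The E2F2 difference was lost without control replicate 1 (adjusted p = 0.0536), control replicate 3 (adjusted p = 0.0872), activin + HGF replicate 2 (adjusted p = 0.061) or activin + HGF replicate 3 (adjusted p = 0.0501), each from edgeR. For E2F1 the difference was 0.76 (95% interval -0.16 to 1.68) and did not pass, except without activin replicate 2 (1.26, edgeR adjusted p = 0.0255). That of RBL1 was -0.53 (95% interval -1.80 to 0.75).

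Promoter sequence is shown for the 3 members whose windows share a feature, and for CCNE1 as a G1/S gene without it. E2F proteins are known to bind short sites with a run of T followed by a GC-rich core. The window around each RefSeq start site (GRCh38.p14, 250 bases before to 50 after) was searched on both strands for TTTCGCG and TTTGGCG, which do not overlap each other in the matches below. These letters were chosen after the sequences had been read. Windows were found for 7 of the 10 genes, and CCND1, CCNE2 and CDK2 had none. The 100 bases before the start are printed 5′ to 3′ on the strand of the gene, with matches in capitals.
E2F1, chr20:33686386-33686485, minus strand: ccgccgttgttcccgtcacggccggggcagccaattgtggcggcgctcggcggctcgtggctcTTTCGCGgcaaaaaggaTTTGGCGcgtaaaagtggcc
E2F2, chr1:23531234-23531333, minus strand: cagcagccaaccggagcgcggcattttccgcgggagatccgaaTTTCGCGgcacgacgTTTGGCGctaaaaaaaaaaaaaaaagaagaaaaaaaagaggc
RBL1, chr20:37095998-37096097, minus strand: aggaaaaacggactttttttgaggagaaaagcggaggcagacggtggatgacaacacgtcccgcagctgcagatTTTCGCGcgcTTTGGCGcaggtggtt
CCNE1, chr19:29811891-29811990, plus strand: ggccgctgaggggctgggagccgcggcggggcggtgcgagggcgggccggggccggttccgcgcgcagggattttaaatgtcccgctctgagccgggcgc

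E2F1, E2F2 and RBL1 each held TTTCGCG followed by TTTGGCG on the gene's strand. The first match lay at -37 to -31 from the start in E2F1, at -57 to -51 in E2F2 and at -26 to -20 in RBL1. The other followed at -20 to -14, -42 to -36 and -16 to -10. Of all 35116 windows of this length, 3.19% held at least 1 match and 0.105%, or 37 windows, held at least 2. The 37 include those of E2F1, E2F2 and RBL1. As the letters were chosen after these promoters had been read, the shares do not test how unusual these genes are. The windows of CCNE1, CDK4 and CDK6 held none, which says only that these letters are not there. For RB1 the table lists an internal start 172706 bases from the gene's first base, so its main promoter was not searched.

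Other genes with at least 2 matches were read as a description, since the letters came from the members. Of 28 such tested genes, 10 were lower and 2 higher in activin + HGF than in control, or 35.7% and 7.14%. The shares were 17.6% and 19.0% of the 12389 tested genes with a window. Among 717 genes with 1 match, 22.3% were lower and 15.5% higher. In the activin step 6 of the 28 were lower (21.4%) and 3 higher (10.7%), beside 9.68% and 10.8% of all tested genes with a window. In the HGF step 5 of the 28 were lower (17.9%) and 2 higher (7.14%), beside 5.82% and 8.18%. CDC6, MCM2 and MCM6, which load or form the replicative helicase, and CDC25A, a phosphatase that activates CDK2, are among these 28 and also stand in the lists below.

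A list of 26 known E2F target genes, mostly for DNA replication and nucleotide synthesis, gave 20 lower and 0 higher with activin, 6 lower and 0 higher in the HGF step, and 23 lower and 0 higher in activin + HGF against control (edgeR, adjusted p under 0.05). Of all tested genes, 8.41%, 5.45% and 15% passed as lower in these comparisons, and 9.58%, 7.41% and 16.4% as higher. The list's median log2 fold changes were -1.45, -0.36 and -1.86, beside 0.02, -0.04 and -0.03 over all tested genes. With activin the largest changes were those of MCM5 (7.98-fold lower, edgeR adjusted p = 3.55e-05), MCM4 (6.22-fold), GINS2 (5.68-fold) and MCM2 (5.50-fold), which encode parts of the replicative helicase. MCM5 went from 193 to 232 CPM in control libraries to 21.9 to 33.6 CPM with activin. In the HGF step the lower genes included the helicase component CDC45 (-1.67, edgeR adjusted p = 0.0118), the transcription factor MYBL2 (-1.40, edgeR adjusted p = 0.01) and the chromatin assembly subunit CHAF1A (-0.93, edgeR adjusted p = 0.041). Listed targets without a call against control were CDT1, RRM2 and DUT, at -0.40, -0.39 and -0.10. This list, and those of other pathway genes and CDK inhibitors, were chosen with earlier results of these data known. Their counts are thus a description and no independent support.

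The count of E2F targets in the HGF step depended on scaling, with 13 passing under library totals and 16 in limma on FPKM. In the contrast of the HGF step with the activin step, 9.15% of all tested genes passed in either direction. Of the 26 targets, 10 were higher and 0 lower, a difference between the steps. They include MCM5 (3.24, edgeR adjusted p = 0.00119), whose HGF step was 0.24, and GINS2 (2.14, edgeR adjusted p = 0.00512), whose HGF step was -0.36, and none of the 10 passed in the HGF step itself. CCNE2 and E2F2 had the opposite sign in this contrast.

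Among 26 other genes of the pathway (further cyclins, kinases, E2F partners and pocket protein complex subunits), 4 were lower and 0 higher with activin, near the 18% of all tested genes that passed there. By direction, 8.41% of all tested genes were lower and 9.58% higher. TFDP1, the DNA-binding partner of E2F, gave -1.03 (edgeR adjusted p = 0.0107), SKP2, which marks p27 for degradation, gave -0.92 (edgeR adjusted p = 0.0112), and the repressor E2F8 gave -0.68 (edgeR adjusted p = 0.0478). The fourth, the cyclin D2 gene CCND2, was hardly expressed, with 34, 188 and 355 counts in control, 0, 19 and 7 in activin and 28, 4 and 28 in activin + HGF libraries. In the HGF step 3 were lower and 1 higher, beside 12.9% of all genes (5.45% lower and 7.41% higher). These were E2F8 (-1.46, edgeR adjusted p = 0.00527), its close relative E2F7 (-1.39, edgeR adjusted p = 0.00694) and CDC25A (-0.96, edgeR adjusted p = 0.0263) as lower and E2F5, a factor that acts with repressive pocket proteins, as higher (0.87, edgeR adjusted p = 0.0179). Against control, activin + HGF gave 8 lower and 1 higher, led by E2F8 (-2.15), TFDP1 (-1.51), SKP2 (-1.20) and E2F7 (-1.05), with E2F5 higher at 0.94. These 9 of 26 are close to the 31.4% of all genes that passed. By direction they leaned to lower, since 15% of all genes were lower and 16.4% higher. The activin count of 4 was 2 without control replicate 1, control replicate 3, activin replicate 1 or activin replicate 3, and 1 without control replicate 2. Median log2 fold changes of the list were -0.05, -0.09 and -0.29.

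Of 7 genes for CDK inhibitors, which block the kinases described above, 4 were higher and 0 lower with activin. The shares of all tested genes there were 9.58% higher and 8.41% lower. CDKN1C, the gene of p57, went from 5.33 to 6.14 CPM in control to 26.0 to 57.7 CPM with activin (log2 fold change 2.81, edgeR adjusted p = 0.00106) and to 101 to 239 CPM with activin + HGF (4.69 against control, edgeR adjusted p = 5.94e-05). CDKN1A, the gene of p21, rose by 1.17 with activin (edgeR adjusted p = 0.00303), CDKN2B, that of p15, by 1.03 (edgeR adjusted p = 0.00578) and CDKN1B, that of p27, by 0.79 (edgeR adjusted p = 0.0484). In the HGF step CDKN1C (1.88), CDKN2D (1.56) and CDKN2A (0.91) were higher and CDKN2C, the gene of p18, was lower (-1.45, edgeR adjusted p = 0.0201). The shares of all tested genes in that step were 7.41% higher and 5.45% lower. Against control, 5 of the 7 inhibitor genes were higher and 1 lower, beside 16.4% and 15% of all tested genes. The lower gene was CDKN2C, at -2.03 (edgeR adjusted p = 0.00148). The HGF-step count of 4 was 2 with library totals, in limma, with a block on replicate numbers, and without any 1 control library or activin + HGF replicate 1, it was 1 without activin replicate 1 or activin replicate 3 and in a fit of the 2 groups alone, and it was 0 at an adjusted p under 0.01. The median log2 fold changes of the 7 genes were 1.03, 0.48 and 1.41.

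The genes whose profile over the 9 libraries was most like that of a member were found among 14756 genes with a mean of at least 1 CPM, by the correlation of log2(CPM + 1). Those nearest to CCND1 were LTBP3, RFLNB and CMTM8 (Pearson correlation 0.996, 0.995 and 0.994). For E2F1 they were SLC4A2, TUBB and PRDX2 (0.994, 0.993 and 0.992), and for RB1 they were CILK1, TMCC1 and ZNF620 (0.987, 0.985 and 0.983). The 9 libraries fall into 3 groups, so these values describe likeness over the groups and carry no test.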

How the data were processed

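The authors deposited counts per gene, not normalized, and FPKM values for 33861 genes in 9 libraries. The submitters' processing notes name cutadapt 1.9, HISAT2 2.0.4 and StringTie 1.3.4d, and the paper's text names no aligner. Of 32930 gene identifiers shared with GENCODE 29, 99.77% overlapped its GRCh38 coordinates. The members and gene lists were chosen with earlier results of these data known. Counts were tested with edgeR 4.0.16 in R 4.3.3 (filterByExpr, TMM, a mean per group, no block), with p-values adjusted over 20988 genes. DESeq2 1.42.0 and limma 3.58.1 on log2(FPKM + 0.1) were alternatives, with other scalings, filters, thresholds and each library left out. Standard errors were taken from fold changes and F statistics and are approximate. All 10 members were named, with up to 4 passing genes per list and comparison, and any gene on which a count of 5 or fewer turned. A gene that meets this rule is not reported here. On simulated counts of 20093 genes for activin against control, 77.5% of 200 genes changed by a log2 of 2 were recovered, and 3.12% of 160 passing genes were false. The changed genes all lay above a floor in mean count, with as many raised as lowered, and no scaling difference between groups was simulated. These shares thus do not cover smaller changes or the unequal scaling of the real libraries. Deviations of same-numbered libraries correlated at -0.122 to 0.237. Libraries with unlike numbers were not compared, so these values cannot decide whether the numbers pair the libraries. Counts of replicate libraries differed by more than sampling error in each pair (chi-square over degrees of freedom, 59.2 to 266). The sources used here do not state that 1 count stands for 1 sequenced fragment, so these values describe the spread only on that assumption. The count per FPKM of each member, divided by the median of that value over genes in the same library, varied by at most 1.02-fold over libraries. Gene Ontology and KEGG columns were not used. Figures used Python 3.11.15 and matplotlib 3.10.9.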

Additional observations from a re-analysis of the deposited data

How the results depend on the processing

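The limits are 3 libraries per group, a scaling that differed between groups, and control cells of unstated culture length. CCNE2 and E2F2 passed as lower in both comparisons with activin + HGF under every alternative.

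Without replicate block against with it, the counts of members passing were 1, 4 and 7 against 1, 3 and 6 for activin against control, the HGF step and activin + HGF against control, and the block removed the calls of CCND1 in the HGF step (adjusted p = 0.0528 from edgeR) and of CCNE1 against control (adjusted p = 0.0709 from edgeR). Whether the numbers pair the libraries is not known.

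For activin against control, members passing were 2 with DESeq2 and with limma on log2(FPKM + 1), and 0 at an adjusted p under 0.01 or with a log2 change of 1 or more in size required, where all genes were 1688 and 2394, and other pathway genes 0 and 2. Other pathway genes were 2 in limma without a filter. In the HGF step, members passing were 2 with only both groups in the fit and 2 at 0.01. All genes were 4510 with DESeq2, 714 with only both groups, 488 at 0.01 and 1697 with the fold required. Other pathway genes were 7 with library totals, DESeq2 and limma, and 2 with only both groups, at 0.01 and with the fold. E2F targets were 13 with library totals, 10 with DESeq2, 16, 15 and 12 in limma with a pseudocount of 0.1, of 1 and without a filter, 3 with only both groups, 1 at 0.01 and 3 with the fold. CDK inhibitors were 1 with only both groups and 0 at 0.01. In activin + HGF against control, 4 members, and 4 other pathway genes, passed with the fold, and 3492 genes at 0.01.

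With each library left out, members passing were 0 to 1, 2 to 5 and 5 to 8 in the 3 comparisons, all genes 2021 to 4729, 686 to 4533 and 4260 to 7798, other pathway genes 1 to 4, 3 to 6 and 7 to 10, and E2F targets 18 to 23, 4 to 7 and 22 to 23.

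Signs that turned were all of values without a call. For activin against control, CDK4 became 0.014, 0.013, 0.023, 0.022 and 0.023 under upper quartile scaling, library totals, and limma with a pseudocount of 0.1, of 1 and without a filter, E2F2 in the same order 0.022, 0.025, 0.018, 0.017 and 0.018, and CDK6 0.022 with library totals. CCNE1 in the HGF step became -0.15 with library totals and -0.18, -0.17 and -0.18 in limma. With each library left out, activin against control spanned -0.055 to 0.20 for CCNE2, -0.097 to 0.22 for CDK2, -0.38 to 0.20 for CDK4, -0.24 to 0.19 for CDK6 and -0.27 to 0.12 for E2F2, the HGF step -0.0027 to 0.32 for CCNE1, -0.31 to 0.032 for CDK2 and -0.42 to 0.033 for E2F1, activin + HGF against control -0.16 to 0.012 for CDK2, and the difference of the steps -0.56 to 0.045 for CCNE1, -0.52 to 0.13 for CDK2 and -1.14 to 0.054 for CDK4. With a pseudocount of 0.1 the log2 ratio of CCNE1 to CCNE2 differed by 2.25 against activin and 2.57 against control.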
